A study of Mus musculus with 6 samples.

Results

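The RNAs of the mitochondrial ribosomal proteins were measured in whole embryonic mouse lungs with and without *Raptor* (*Rptor*), the scaffold of mTORC1, in the epithelium. The group was chosen with earlier results of these data known. Its genes were then taken by symbol alone, as every entry whose symbol is *Mrpl* or *Mrps* followed by a number and at most 1 letter. This gave 76 of the 23420 genes listed, and all 76 could be tested. By the current naming of the ribosome's parts, 49 of them encode proteins of the large subunit, 26 encode proteins of the small subunit, and *Mrps36* encodes a component of 2-oxoglutarate dehydrogenase that was first taken for a ribosomal protein. *Mrps18a* and *Mrps30* belong to the large subunit in spite of their names, and were counted there.

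Control lungs were Raptorf/+; ShhCre/+ and mutant lungs were Raptorf/f; ShhCre/+, both collected at the stage labelled E11.5dpc (days post coitus). There were 3 pools of each genotype, and each pool combined 3 or 4 lungs. Both groups carried the *Shh*-driven Cre and at least 1 floxed *Raptor* allele, so the control lungs had also lost 1 functional copy wherever Cre was active. Recombination is driven in the lung epithelium, whereas the RNA came from whole lungs, which also hold mesenchyme, vessels and blood. In such RNA, fewer cells of a type and less RNA per cell cannot be told apart.

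Mitochondria carry their own ribosome, which makes the few membrane proteins encoded by mitochondrial DNA, all of them subunits of the respiratory chain and ATP synthase. Its RNA parts come from mitochondrial DNA, but every protein part is encoded in the nucleus, made in the cytosol and imported. Some of these proteins descend from the bacterial ribosome and others were added in mitochondria. In cultured cells, mTORC1 is known to favour the translation of mRNAs for several mitochondrial proteins, mitochondrial ribosomal proteins among them, which is a step that RNA levels do not measure.

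*Raptor* itself had normalized counts of 2126, 2193 and 2279 in control pools 1 to 3 and 2023, 2137 and 2148 in mutant pools 1 to 3. The groups overlapped, and the log2 fold change of mutant over control was -0.06 (SE 0.05, adjusted p = 0.584, limma), so the RNA level in whole lung did not separate the genotypes. Reads were counted over the whole gene, including exons outside the deleted part, so this level is a weak check of the deletion. Each library held between 20197642 and 21276090 reads assigned to genes. The lung epithelium was present in all pools, with *Nkx2-1*, a transcription factor of lung epithelium, between 1977 and 2686. Of 21 epithelial marker genes, 7 fell in the mutant pools at an adjusted p under 0.05 and none rose, and their summed level was 27157 to 31678 in control and 23028 to 24436 in mutant pools. Of 13 mesenchymal markers, 4 rose and none fell, with sums of 106947 to 114816 in control and 130436 to 137947 in mutant pools. The part of these shifts in the values of the mitochondrial ribosomal protein genes was not tested.

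No mitochondrial ribosomal protein gene passed the test for a change between the genotypes. At an adjusted p under 0.05, limma called 0 of 76, against 0.501% of all 17168 genes tested, and edgeR on the recovered reads also called 0. The lowest adjusted p of a member was 0.241. At an unadjusted p under 0.05, 2 members were higher in the mutant pools and 0 were lower by both limma and edgeR, where 13.6% of all genes tested passed in limma in either direction. The fold changes lay close to 0 on both sides. They were above 0 for 47 members and below 0 for 29, with a median log2 fold change of 0.02 beside 0.00 for all genes tested, and ran from -0.16 for *Mrpl10* to 0.19 for *Mrps6*. The median size of the log2 fold change, whatever its sign, was 0.04 for the members, 0.10 for all genes tested and 0.07 for tested genes with a mean normalized count of at least 100. It was also 0.04 for nuclear genes of oxidative phosphorylation and 0.05 for genes of mitochondrial ribosome assembly. For cytosolic ribosomal protein genes it was 0.10. Of the members, 60 of 76 (78.9%) were within 0.1 of 0 on the log2 scale, as were 49.8% of all genes tested.

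Since a p above the threshold does not show that 2 levels are alike, the 95% intervals of the fold changes were read as well. For 72 of 76 members (94.7%) the whole interval lay within 1.25-fold either way, as it did for 74.8% of tested genes with a mean of at least 100. The share was 97.3% for nuclear genes of oxidative phosphorylation and 80.0% for cytosolic ribosomal protein genes. For all 76 members the interval lay within 1.5-fold. The members outside the narrower range were *Mrps6*, *Mrps18b*, *Mrps26* and *Mrps28*, all of the small subunit. Inside it were 49 of 49 large subunit genes and 22 of 26 small subunit genes. The small subunit genes also had lower counts (median of the means 699 against 963) and larger SEs (median 0.068 against 0.062). The width of an interval follows its SE, but its place follows the fold change. *Mrpl53*, of the large subunit, had an SE of 0.10 and lay inside. *Mrps6* and *Mrps26* had SEs of 0.08 and lay outside, with log2 fold changes of 0.19 each. The lowest bound of any interval was a change of -20.4% (*Mrps18b*) and the highest one of 29.5% (*Mrps26*). All these bounds hold for RNA of whole lung, in which cells outside the epithelium count as well. They set no limit on a change within the epithelium alone, which was not measured.

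**Figure D1:**
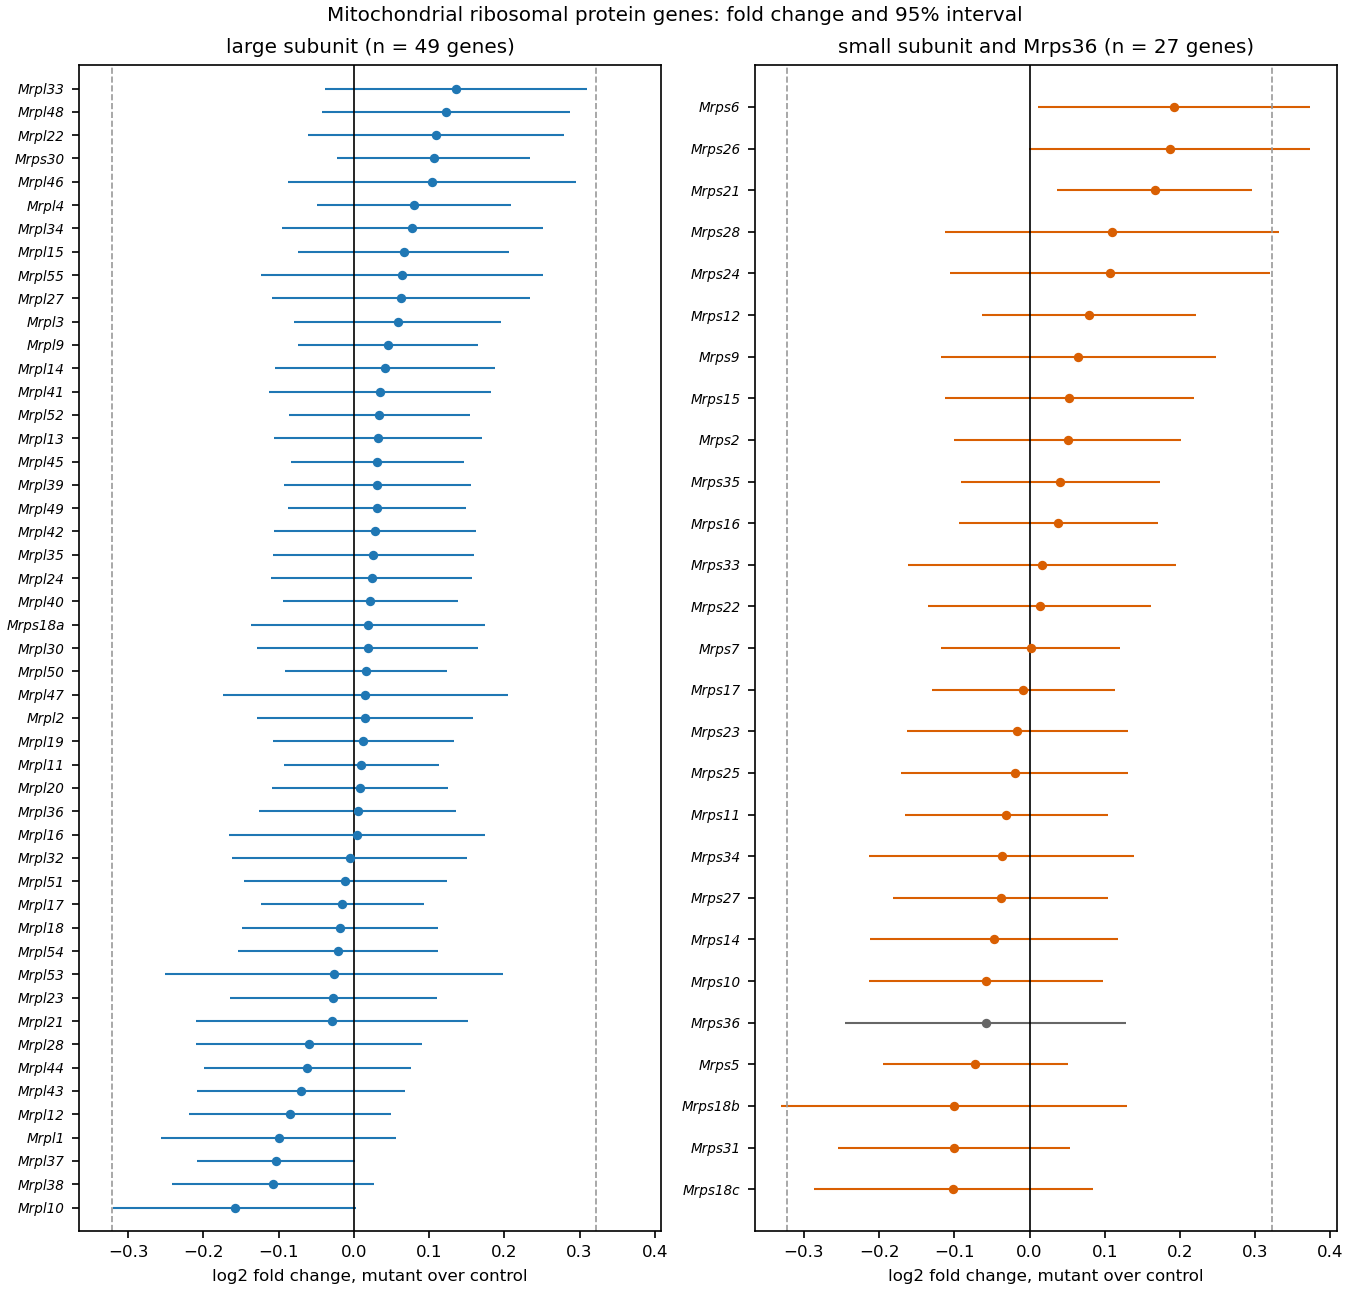
Log2 fold change of mutant over control (x axis) for each of the 76 genes (rows), with the 95% interval of the limma fit as a horizontal line, in blue for the large subunit, orange for the small subunit and grey for *Mrps36*. The dashed lines mark a 1.25-fold change either way, the points run from -0.16 to 0.19, and 2 intervals, those of *Mrps6* and *Mrps21*, do not cross 0.

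The genes with the highest fold changes were small subunit genes. *Mrps21*, which encodes a small subunit protein of the bacterial S21 family, lies on chromosome 3 from 95862634 to 95871519 (minus strand, GRCm38). It had normalized counts of 695, 678 and 640.1 in the control pools and 766, 756 and 736 in the mutant pools. All mutant values were above all control values, with means of 671 ± 28.2 and 753 ± 15.3 (SD, n = 3 each). The log2 fold change was 0.17 (SE 0.06, adjusted p = 0.241, limma).

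*Mrps6* encodes a protein of the platform of the small subunit, where it sits beside an S18 protein, and lies on chromosome 16 from 92058270 to 92112227 (plus strand). Its values were 320.2, 371 and 344 in control and 377, 412 and 393 in mutant pools. The groups again did not overlap, although control pool 2 was close to mutant pool 1, and the log2 fold change was 0.19 (SE 0.08, adjusted p = 0.338, limma). Exons of *Mrps6* share 159 bases on the same strand with *Slc5a3*, a myo-inositol transporter gene whose own log2 fold change was -0.12 (adjusted p = 0.588), and reads in the shared bases cannot be assigned to either gene by position.

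*Mrps26*, a gene for a protein found only in mitochondrial ribosomes (chromosome 2, 130563742 to 130568695, plus strand), had 666, 634 and 539 in control and 654, 724 and 709 in mutant pools. Here control pool 1 lay above mutant pool 1, and control pool 3 was the lowest of all, with a control SD of 66.2 against 36.7 in the mutant. The log2 fold change was 0.19 (SE 0.08, adjusted p = 0.370, limma), and it was 0.10 without control pool 3 and 0.25 without control pool 1. *Mrpl33*, a small protein of the large subunit, had 358, 364 and 363 in control and 428, 368 and 398 in mutant pools. The groups did not overlap, but mutant pool 2 was only a few counts above the controls, and the adjusted p was 0.482 at a log2 fold change of 0.14.

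At the other end stood *Mrpl10* (chromosome 11, 97041560 to 97049213, plus strand), whose protein anchors the stalk, the flexible arm that brings translation factors to the large subunit. Its normalized counts were 1995, 2103 and 1702 in control and 1658, 1769.7 and 1749 in mutant pools. Control pools 1 and 2 were above every mutant pool, whereas control pool 3 lay among the mutants. With all pools the log2 fold change was -0.16 (SE 0.07, adjusted p = 0.378, limma). *Mrpl12*, whose protein forms the end of the stalk, had the highest mean normalized count of all members, with 2233, 2211 and 1955 in control and 2089.5, 2031 and 1905 in mutant pools. Its groups overlapped in the same way, through control pool 3, and its log2 fold change was -0.09 (SE 0.06, adjusted p = 0.579). The remaining stalk gene, *Mrpl11*, gave a log2 fold change of 0.01.

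*Mrpl37*, for a protein found only in mitochondrial ribosomes, was the 1 member whose mutant values all lay below the control values. They were 1776, 1714 and 1657 in control and 1545, 1619 and 1624 in mutant pools. The log2 fold change was -0.10 (SE 0.05, adjusted p = 0.374, limma). *Mrpl38*, for a protein of the central protuberance, the part of the large subunit that faces the head of the small subunit, had 1433, 1542 and 1378 in control and 1311, 1291 and 1438 in mutant pools. Mutant pool 3 was above 2 of the controls, and the log2 fold change was -0.11 (SE 0.06, adjusted p = 0.470). Counted over all members, 3 had every mutant value above every control value, which is 3.95% of 76 against 9.77% of all genes tested. The 1 member with every mutant value below compares with 10.5% of all genes tested.

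**Figure D2:**
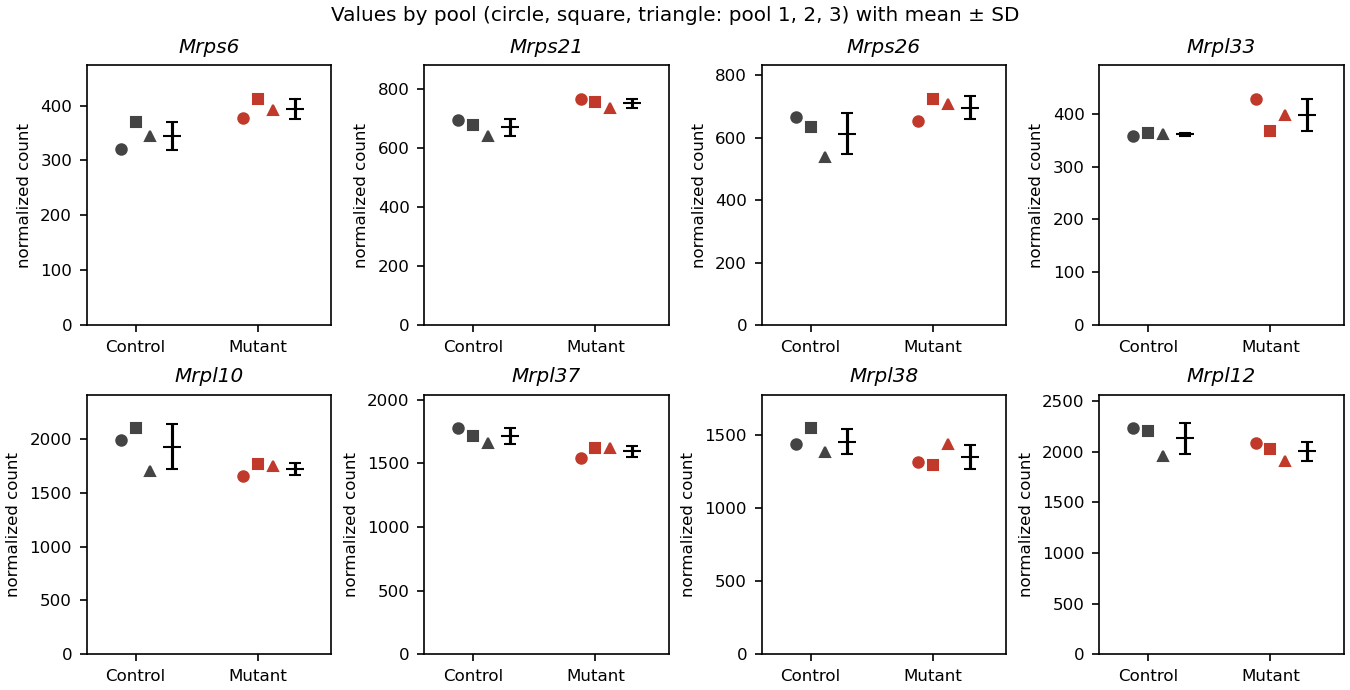
Normalized counts (y axis, from 0) of 8 members in the 3 control pools (grey) and the 3 mutant pools (red), with circles, squares and triangles for pools 1, 2 and 3 and the mean ± SD (n = 3) at the right of each group. *Mrps6*, *Mrps21* and *Mrpl33* do not overlap with mutant higher, *Mrpl37* does not overlap with mutant lower, and the triangle of control pool 3 is the lowest control value in 6 of the 8 panels.

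The 3 genes of the S18 family are paralogs with different places in the ribosome. *Mrps18a*, in the large subunit, had 979, 995 and 842 in control and 967, 964 and 916 in mutant pools (log2 fold change 0.02, SE 0.07). *Mrps18b*, in the small subunit, had 571, 592 and 448 in control and 482, 532 and 479 in mutant pools (log2 fold change -0.10, SE 0.10). *Mrps18c*, the small subunit protein closest to bacterial S18, had 524, 488 and 459 in control and 504, 435 and 433 in mutant pools (log2 fold change -0.10, SE 0.08). In all 3 genes the groups overlapped, and the lowest adjusted p of the family was 0.646.

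By subunit, the median log2 fold change was 0.02 for the large subunit, where 33 genes were above 0 and 16 below. For the small subunit it was 0.01, with 14 above and 12 below, and both genes at an unadjusted p under 0.05 belonged to it. The summed normalized counts per kb of transcript were 2.58, 2.59 and 2.61 times as high for the large as for the small subunit in the control pools, and 2.54, 2.54 and 2.60 times in the mutant pools, so the groups overlapped. By place within the large subunit, the median log2 fold change was -0.09 for the 3 stalk genes, 0.02 for the 6 genes of the exit of the peptide tunnel and 0.06 for the 7 genes of the central protuberance. By descent, it was 0.02 both for the 48 genes of bacterial families and for the 27 genes found only in mitochondrial ribosomes. No gene of any of these classes was called by limma or edgeR with all pools.

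The pools were then compared with each other, since 1 of them stood apart. Control pool 3 held the lowest of the 6 values for 52 of the 76 members (68.4%) and the highest for 0. Among tested genes with a mean of at least 100, it was lowest for 28.5% and highest for 25.3%, so it was often an extreme pool, but for these genes in either direction. The summed normalized count of the members was 71692 and 71823 in control pools 1 and 2, 65145 in control pool 3, and 70224, 69979.7 and 69108 in the mutant pools. The group means of these sums were 69553 ± 3818 in control and 69771 ± 586 in mutant lungs (SD, n = 3 each), a difference of 0.313%. The median log2 deviation of the members from their 6-pool mean was 0.04, 0.04 and -0.09 in control pools 1 to 3, and 0.02, 0.01 and -0.01 in the mutant pools. Control pool 3 was thus low by about the same amount for the large (-0.09) and the small subunit (-0.09).

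**Figure D3:**
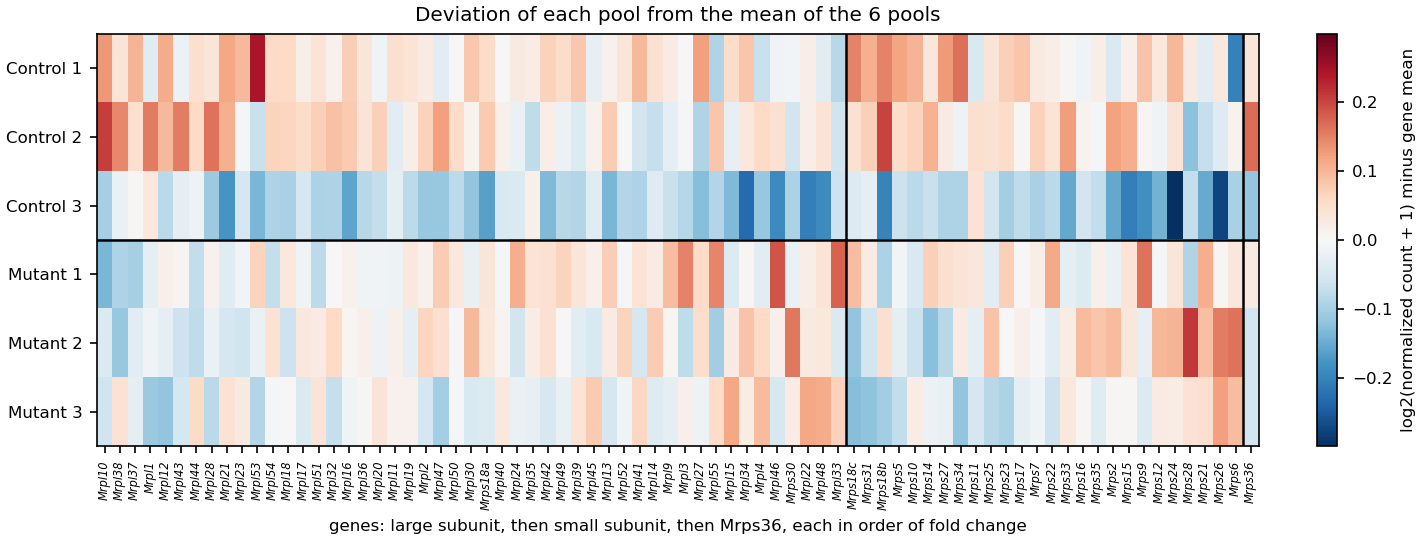
Deviation of each pool (rows) from the mean of the 6 pools on the log2(normalized count + 1) scale for each of the 76 genes (columns), red above and blue below the mean, with a vertical line between large and small subunit and before *Mrps36* and a horizontal line between the genotypes. The row of control pool 3 is mostly blue, being the lowest pool for 52 of 76 genes, while no mutant pool is lowest for more than 8.

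The same pool was the lowest of the 6 for some related lists and not for others. Its median deviation was -0.12 for the cytosolic ribosomal proteins, -0.10 for the nuclear subunits of oxidative phosphorylation (OXPHOS), -0.07 for mitochondrial translation factors, -0.04 for ribosome assembly genes, where mutant pool 1 was lower, -0.03 for mitochondrial tRNA synthetases, -0.03 for the ribosomal proteins of other names and 0.02 for mitochondrial DNA transcription and RNA processing, against 0.00 for all genes tested. Among the 8 marker lists, its deviation was -0.29 for macrophages, -0.18 for the endothelium, the mesenchyme and the mesothelium, 0.06 for neural genes, 0.11 for the epithelium, 0.18 for cardiac muscle and 0.22 for erythroid genes. The mean holds the mutant pools too, so these deviations mix genotype and pool. Control pools 1 and 2 had 0.19 and 0.28 for the epithelium, so control pool 3 was the lowest control there. They had -0.10 and -0.10 for the mesenchyme, and -0.10 and -0.01 for the endothelium. Other pools also lay far from the mean for erythroid genes, with -0.19 in both control pool 2 and mutant pool 2. The part of cell makeup in the low values of this pool was not tested.

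The comparison was therefore repeated without control pool 3, which leaves 2 control pools against 3 mutant pools. The median log2 fold change of the members then changed sign, to -0.03, with -0.03 for the large and -0.04 for the small subunit, and 0.00 for all genes tested. The pool had been singled out for its low values in the members, so leaving it out moves most of their fold changes down by construction. At an unadjusted p under 0.05, 7 members were lower (9.21%, against 8.58% of all genes in that fit) and 2 were higher (2.63%, against 8.37%), so the share in either direction was 11.8% beside 16.9% of all genes. The lower ones, listed after their values were seen, were *Mrpl10*, *Mrpl12*, *Mrpl28*, *Mrpl37*, *Mrpl38*, *Mrps5* and *Mrps18b*, and the higher ones were *Mrps6* and *Mrps21*. Only *Mrpl10* was called, with a log2 fold change of -0.25 (SE 0.05, adjusted p = 0.0156, limma), in a fit that called 468 of 16993 genes. In the other 5 fits that left out 1 pool, 0 members were called, and without control pool 2 the log2 fold change of *Mrpl10* was only -0.09 (unadjusted p = 0.199, limma). Without control pool 3 the median log2 fold change was -0.15 for the stalk, -0.01 for the tunnel exit and 0.02 for the central protuberance. The spread among control pools was larger than among mutant pools for 59 of 76 members (77.6%), and for 62.0% of all genes tested.

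Levels of the RNAs differed far more between genes than between genotypes. Expressed per kb of the gene's principal transcript, the mean over the 6 pools ran from 95.2 to 2515, a 26.4-fold span, with a median of 658 over all members, 725 for the large and 568 for the small subunit. *Mrpl52* was highest, at 2486 ± 109 in control and 2544 ± 78.6 in mutant pools. It was followed by *Mrpl42*, at 2234 ± 161 and 2275 ± 84.2, and by *Mrpl54*, at 1793 ± 108 and 1766 ± 69.9. All 3 encode large subunit proteins found only in mitochondrial ribosomes. The control range of *Mrpl52* did not overlap that of *Mrpl42*, nor the latter that of *Mrpl54*.

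The lowest level per kb was that of *Mrps25*, for a small subunit protein found only in mitochondria, at 95.8 ± 3.63 in control and 94.6 ± 5.68 in mutant pools. *Mrpl47*, at the tunnel exit, had 125 ± 10.5 and 126 ± 8.29, and *Mrpl48*, of the central protuberance, had 121 ± 9.80 and 131 ± 3.95, so these neighbours did not differ beyond their spread. These levels depend on the annotated length, which was 6.073 kb for *Mrps25* and 0.418 kb, the shortest of all members, for *Mrpl52*, and which transcript the lungs used was not measured. Exons of *Nr2c2* on the opposite strand cover 69.8% of the exon bases of *Mrps25*. In all, 32 members share exon bases with another annotated gene, 8 of them on the same strand, and their values are the less certain for it.

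**Figure D4:**
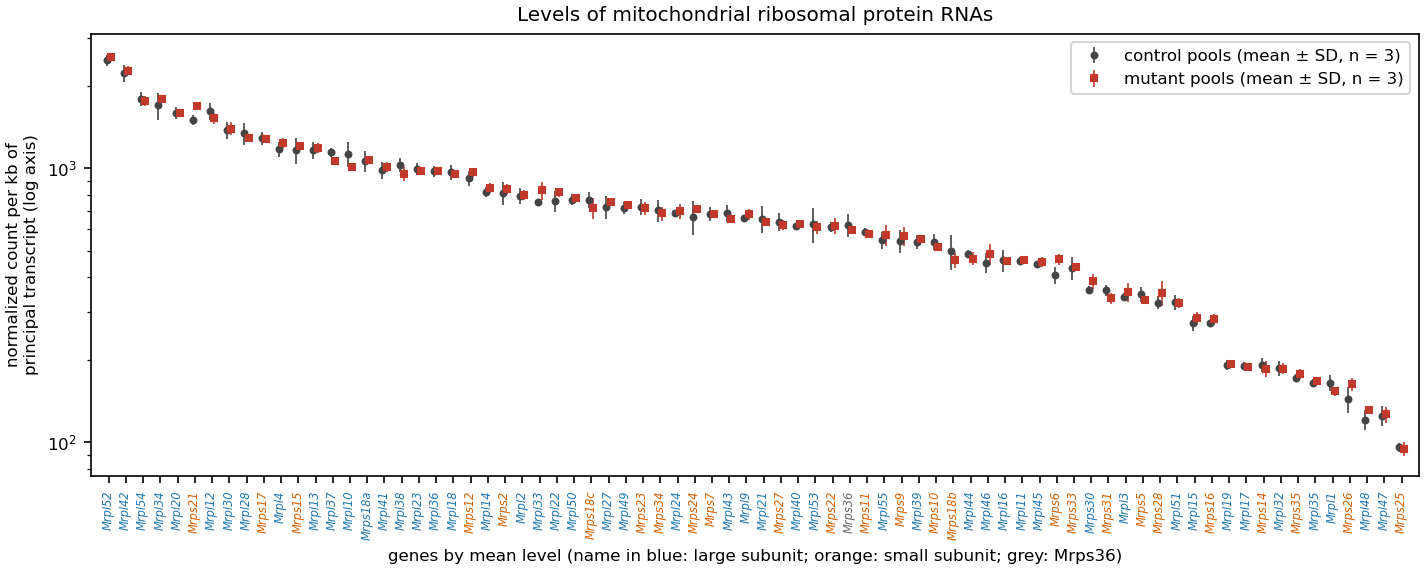
Normalized count per kb of principal transcript (y axis, log scale) for the 76 genes in order of their mean level (x axis), as mean ± SD of 3 control pools (grey circles) and 3 mutant pools (red squares). The levels span 26.4-fold from *Mrpl52* to *Mrps25*, while the 2 genotypes lie next to each other at each gene.

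Promoter sequences were searched because genes for mitochondrial proteins are known to be controlled by ETS-family factors (GABP, also called NRF2) and by NRF1. Another reason was the small size of the members' fold changes, which nuclear OXPHOS genes shared (median size 0.04 in both). RefSeq promoters (GRCm38.p6) were found for 67 of 76 members, and the 250 bases before the start were read on both strands. The ETS letters CCGGAAG were present in 17 of 67 (25.4%). They were present in 16.3% of tested genes with a mean of at least 100, 12.9% of tested genes and 7.83% of all genes with a promoter. The NRF1 core letters GCATGCGC were present in 8 of 67 (11.9%), against 5.45%, 4.36% and 2.56% in the same order. The YY1 core letters ATGGCGGC were present in 1 (1.49%), against 2.35%, 1.85% and 1.19%. For comparison, the ETS letters were in 29.5% and the NRF1 letters in 0 of the 61 cytosolic ribosomal protein promoters, and in 19.0% and 14.3% of the 63 promoters of nuclear OXPHOS genes. These shares are descriptions and were not tested, and a match is not a bound site. The median log2 fold change was 0.02 both for the 23 members with ETS or NRF1 letters and for the 44 with neither.

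Stretches of 100 bases from 4 promoters show how the letters lie, 5′ to 3′ on the gene's own strand, with every match on either strand in capitals. *Mrpl52* is the member with the highest level and *Mrps18a* the large subunit member of the S18 family. *Mrpl22*, a tunnel exit gene, holds both kinds of letters, which do not overlap, as does *Mrpl17*. *Mrpl9* shows the NRF1 letters on both strands, overlapping as a palindrome. The stretches are chr14:54426809-54426908 (plus strand) for *Mrpl52*, chr17:46110886-46110985 (plus strand) for *Mrps18a*, chr11:58171561-58171660 (plus strand) for *Mrpl22* and chr3:94443218-94443317 (plus strand) for *Mrpl9*, and none holds an annotated exon base.
Mrpl52: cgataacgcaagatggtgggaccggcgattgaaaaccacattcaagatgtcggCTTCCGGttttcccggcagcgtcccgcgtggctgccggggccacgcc
Mrps18a: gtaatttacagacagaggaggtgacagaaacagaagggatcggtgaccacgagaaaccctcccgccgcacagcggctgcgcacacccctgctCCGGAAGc
Mrpl22: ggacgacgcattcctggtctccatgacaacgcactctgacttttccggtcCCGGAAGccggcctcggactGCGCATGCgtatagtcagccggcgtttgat
Mrpl9: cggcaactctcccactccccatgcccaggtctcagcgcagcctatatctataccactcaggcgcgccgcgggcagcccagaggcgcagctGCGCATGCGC

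The other genes of the pathway were read next. The mitochondrial ribosome has 7 further proteins listed under other names, and limma called 0 of them. *Ptcd3*, for a small subunit protein that contacts the incoming mRNA, had 1887, 1962 and 1875 in control and 1772, 1755 and 1708 in mutant pools. The groups did not overlap, and the log2 fold change was -0.13 (SE 0.04, unadjusted p = 0.0141, adjusted p = 0.226, limma). It was the 1 gene of these 7 at an unadjusted p under 0.05, a count that was 0 without mutant pool 3. *Mrp63*, an older name of *Mrpl57*, had a log2 fold change of 0.17 (adjusted p = 0.386), *Gadd45gip1* 0.10 (0.473), *Ict1*, a peptide release factor built into the large subunit, 0.06 (0.731), *Dap3*, for a GTP-binding protein of the small subunit, 0.02 (0.890), *Chchd1* -0.01 (0.972) and *Aurkaip1* -0.10 (0.536).

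Genes that build, feed and template the mitochondrial ribosome gave no call in limma or edgeR either. Of 30 genes of ribosome assembly and rRNA maturation, 1 was higher at an unadjusted p under 0.05 in limma and 0 in edgeR, with a median log2 fold change of -0.03. That gene was *Mpv17l2*, whose protein binds the large subunit, at 0.33 (adjusted p = 0.344). Of 20 mitochondrial tRNA synthetase and related genes, 1 was higher in both tools, *Vars2* for the valine enzyme, at 0.19 (adjusted p = 0.283), and the median was -0.05. Both counts of 1 higher gene were 0 without control pool 1, control pool 3, mutant pool 2 or mutant pool 3. In the lower direction, 3 of 20 synthetase genes passed without control pool 3 (15.0%, against 8.58% of all genes in that fit). There was 1 lower synthetase gene without control pool 1 and 1 without mutant pool 2. The 15 translation factors tested had a median of -0.04, with 0 at an unadjusted p under 0.05. Of 19 genes of mitochondrial DNA transcription and RNA processing, 3 were lower in both tools, among them *Supv3l1* (-0.13, adjusted p = 0.324) and *Pnpt1* (-0.12, adjusted p = 0.340), which form the RNA-degrading complex of mitochondria, and the median was -0.05. These 3 are 15.8% of the list, against 6.89% of all genes tested lower at that p, and the count was 1 without control pool 1 and 0 without control pool 2 or without any 1 of the mutant pools. Of 15 genes of the mitochondrial DNA itself, those of the rRNAs among them, 0 were found by name among the genes listed, so they were not analysed here.

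Both neighbouring gene groups were set beside the members with their own values. Of 75 nuclear OXPHOS genes tested, 0 were called, 3 were higher at an unadjusted p under 0.05 and 0 lower by limma and by edgeR, and the median log2 fold change was 0.03. Of 80 cytosolic ribosomal protein genes tested, 1 was called by each tool, 25 were higher and 0 lower at an unadjusted p under 0.05 in limma, and the median was 0.09. The called gene was *Rps18* (log2 fold change 0.71, SE 0.05, adjusted p = 0.00105, limma). At an unadjusted p under 0.05 and in the direction of higher, 31.3% of the cytosolic and 2.63% of the mitochondrial ribosomal protein genes passed, against 6.67% of all genes tested. The cytosolic share depended on the fit. It was 7 of 80 (8.75%, against 5.92% of all genes) with 0 called in limma without the variance trend and 11 of 82 (13.4%, against 5.20%) with 0 called without a filter, while the members stayed at 2 higher in both. It was 38 genes without control pool 1, 15 without mutant pool 1, 13 without mutant pool 2 and 16 without mutant pool 3. Without control pool 3 the cytosolic median was 0.05, with 19 of 79 higher and 0 lower, and the OXPHOS median was -0.02, with 4 higher and 6 lower and 1 called. Whether the mitochondrial and the cytosolic genes differ in response was not tested.

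**Figure D5:**
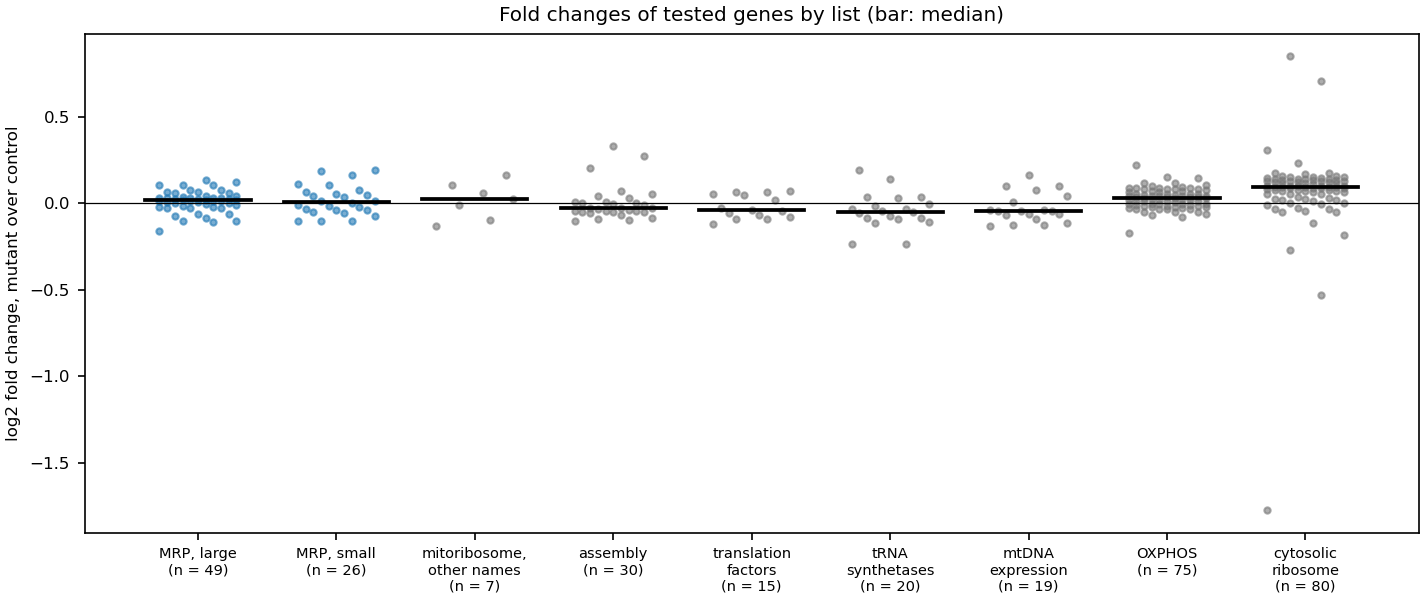
Log2 fold change of mutant over control (y axis) for every tested gene of 9 lists (x axis), with 1 point per gene, the mitochondrial ribosomal proteins (MRP) in blue and a black bar at each list's median. The medians of the large and small subunit are 0.02 and 0.01, that of the cytosolic ribosomal proteins is 0.09, and no blue point lies beyond 0.19 or -0.16.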

How the data were processed

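Whole-lung RNA of 6 pools was compared, grouped by the labels as Control and Mutant with 3 pools each. Per the labels, the submitters' processing notes name Trim Galore, HISAT2, featureCounts, DESeq2 and the build mm10, without versions or the strand setting. The deposited table gives 1 signal value per gene and pool, a normalized count that the authors obtained by dividing reads by a size factor of the library. Further columns hold the comparison made by the authors (log2 fold changes, errors, a test score, p-values) and their mean over all pools. None of these was used. Values were whole multiples of 1 read in all 6 libraries (100% within 0.01 read), which gave back the reads, from 20197642 to 21276090 per library. Precision was limited by the 3 pools of each group. The SD of a member was a median 6.26% of its mean in control and 3.97% in mutant pools. The part of counting error in this spread was not measured. No source says whether same-numbered pools belong together, and p-values measure the spread between pools.

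The test was limma 3.58.1 (R 4.3.3; lmFit, then eBayes with a variance trend) on log2(normalized count + 1), for genes of at least 1 in at least 3 libraries, two-sided, with Benjamini-Hochberg adjustment over 17168 genes and a threshold of 0.05. Fold changes are on that log2 scale. edgeR 4.0.16 (quasi-likelihood) on the recovered reads, other scalings, filters and pseudocounts, a replicate block and leaving out each pool were the alternatives. The fitting step was tested on simulated counts. Gene positions, principal transcripts and overlaps are from GENCODE M21 (GRCm38). Named genes were those at an unadjusted p under 0.05, the 4 highest and 4 lowest fold changes at a mean of at least 100, the 3 highest and 3 lowest levels per kb, the S18 family, *Mrpl12*, *Rptor*, up to 2 genes of lowest p in each other list, and 5 ribosomal genes of other names. The members and lists were chosen with earlier results of these data known. Figures were drawn with matplotlib 3.10.9 under Python 3.11.15.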

Additional observations from a re-analysis of the deposited data

How the results depend on the processing

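No member was called under any of the 10 alternatives that kept all pools, and the lowest adjusted p of a member in them was between 0.207 and 0.357. Leaving out 1 pool gave 0 to 1 called members, the 1 being *Mrpl10* without control pool 3. At an unadjusted p under 0.05, higher members numbered 2 or 3 with all pools and 1 to 5 without 1 pool, the 5 arising without control pool 2. Lower members numbered 0 as reported, 1 with at least 10 in every library, without a filter, with a pseudocount of 10 and with the replicate block, 2 with scaling to equal totals, and 0 to 7 without 1 pool, the 7 without control pool 3. The cause of these changes was not tested. The median log2 fold change of the members was between -0.03 and 0.04 over all alternatives. Of 17 named members under 16 alternatives, 261 of 272 values kept direction and side of the threshold, and 10 changed sign, all when 1 pool was left out. Over those 6 fits, log2 fold changes ran from -0.00145 to 0.0603 for *Mrpl52*, -0.0310 to 0.0700 for *Mrpl42*, -0.0720 to 0.00910 for *Mrpl54*, -0.0669 to 0.0165 for *Mrps25*, -0.0374 to 0.0800 for *Mrpl47* and -0.0575 to 0.0628 for *Mrps18a*. Over all genes, 86 were called as reported, 8 without the variance trend, 18 without a filter and 1 to 468 without 1 pool. Same-numbered pools correlated at -0.03, 0.20 and 0.08 over 11458 genes, and differently numbered pools at -0.17 to 0.13. As no source says that same-numbered pools belong together, the numbers were not taken as pairs. The replicate block called 71 genes and 0 members. With 3 pools a group, the median half-width of a member's 95% interval was 0.14 on the log2 scale, so for a typical member smaller differences could not be separated from 0. These intervals are not adjusted for the number of genes. Among the 86 called genes the smallest log2 fold change, whatever its sign, was 0.22, and the largest of a member was 0.19.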
